A study of Mus musculus with 80 samples.

Results

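Oxidative phosphorylation is the last stage of respiration in mitochondria. Complex I (NADH dehydrogenase) and complex II (succinate dehydrogenase) pass electrons to ubiquinone, complex III passes them on to cytochrome c, and complex IV (cytochrome c oxidase) hands them to oxygen. Complexes I, III and IV pump protons, and complex V (ATP synthase) uses the proton gradient to make ATP, on which neurons depend to restore ion gradients after firing. Most subunits are encoded in the nucleus, and some subunits of complex IV exist as a common form and a form named for heart and skeletal muscle.

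The genes described here are the nuclear-encoded subunits of these complexes and their assembly factors with the same name stems: symbols that begin with Nduf, Uqcr, Sdh, Atp5, or Cox followed by 4 to 8. In all, 105 probes with 85 symbols matched. Requiring a detection p under 0.05 on 4 or more arrays left 100 of these probes and 83 genes, of 11381 genes tested in all, and the brightest probe stood for each symbol. By symbol, 33 belonged to complex I, 3 to complex II, 7 to complex III, 16 to complex IV and 15 to complex V, and 9 were assembly factors (Ndufaf and Sdhaf). Ndufa4 is counted by its symbol under complex I, although its protein is known to sit in complex IV, and Ndufs5-ps carries the symbol of a pseudogene. Uqcrq and Cox7b2 were detected on 1 array each and were not kept, and a probe of Sdhb on 3 arrays fell just outside the threshold. Of the 83 genes, 65 were detected on all 80 arrays, while Cox4i2, the lung isoform of subunit 4, and Uqcrfs1, the iron-sulfur protein of complex III, were detected on fewer than 40.

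The arrays measured messenger RNA of whole hippocampus from 40 male C57BL/6J mice that had surgery at 12 weeks of age. In the KA groups 50 nl of 20 mM kainic acid, a glutamate receptor agonist used to model mesial temporal lobe epilepsy, was injected into the right dorsal hippocampus; sham animals received 50 nl of saline. The injected (IL) and the other (CL) hippocampus were taken after 7, 28 or 60 days, from 8, 9 and 9 KA animals and from 4, 5 and 5 sham animals, which gave 80 arrays on 11 slides. Sham animals had the surgery too, and no group without it is used here. Neuronal markers were high in this tissue, with median log2 levels of 12.54 for Rbfox3 and 12.12 for Camk2a. In bulk tissue, fewer cells of a type and less RNA per cell cannot be told apart.

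The upstream sequences of these genes were read first, because the mitochondrial gene set is known for shared binding motifs. RefSeq windows from 250 bases before to 50 bases after the gene start (GRCm38.p6) were found for 71 of the 83 genes. Both strands were searched for GCGCA followed by any base and GCGC (NRF1), CCGGAAG (ETS factors such as GABPA), AAGATGGC (YY1) and TCAAGGTCA (ESRRA). The NRF1 motif was in 17 windows (23.9%), against 10.2% of 9182 tested genes and 5.19% of 27025 genes in the table. The ETS motif was in 19 (26.8%), against 17.0% and 9.93%, and the YY1 motif in 10 (14.1%), against 4.68% and 3.19%. The ESRRA motif was in 2 (2.82%), against 0.316% of the tested genes. At least 1 of the motifs was in 40 windows and none was in 31. The window of Cox7a1, the 1 gene called at all 3 times on the injected side in the comparisons that follow, held none of them; those of Sdhd and Cox6a1 are shown beside it as windows with several motifs. Sdhd is a membrane anchor of complex II, and Cox6a1 is the common form of the subunit whose muscle form is Cox6a2. Capitals mark the motifs on either strand; a match is only a match of letters.
Cox7a1 (chr7:30183921-30184220, + strand): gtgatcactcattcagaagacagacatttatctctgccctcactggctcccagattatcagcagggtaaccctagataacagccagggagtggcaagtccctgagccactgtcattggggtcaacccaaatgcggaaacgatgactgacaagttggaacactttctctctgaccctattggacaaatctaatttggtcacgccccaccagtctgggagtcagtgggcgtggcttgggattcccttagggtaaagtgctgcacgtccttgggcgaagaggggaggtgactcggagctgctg
Sdhd (chr9:50603800-50604099, - strand): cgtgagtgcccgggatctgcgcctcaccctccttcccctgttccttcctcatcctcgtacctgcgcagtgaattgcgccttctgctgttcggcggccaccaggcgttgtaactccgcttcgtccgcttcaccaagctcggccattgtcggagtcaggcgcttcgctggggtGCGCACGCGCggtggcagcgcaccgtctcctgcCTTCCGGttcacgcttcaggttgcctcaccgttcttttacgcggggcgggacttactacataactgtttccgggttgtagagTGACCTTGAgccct
Cox6a1 (chr5:115348909-115349208, - strand): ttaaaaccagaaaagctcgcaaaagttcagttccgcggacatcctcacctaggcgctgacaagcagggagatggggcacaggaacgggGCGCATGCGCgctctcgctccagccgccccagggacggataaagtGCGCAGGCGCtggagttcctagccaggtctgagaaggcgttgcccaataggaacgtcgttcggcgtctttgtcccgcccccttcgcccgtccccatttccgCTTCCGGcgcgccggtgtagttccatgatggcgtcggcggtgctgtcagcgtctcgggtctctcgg

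Respiratory chain transcripts are among the brightest on these arrays: 50 of the 83 genes were among the brightest 10% of all tested genes, a set of 1138. Slides 4 and 9 were dimmer than the rest and were picked out from these data by their share of detected probes. On the 11 arrays of slides 4 and 9, between 46.8% and 58.0% of probes were detected (median 54.7%), against 59.1% to 66.9% (median 62.3%) on the other 69 arrays. Before scaling, the median intensity of the 83 genes was 314 to 2450 units (median 762) on slides 4 and 9 and 2730 to 5170 units (median 3830) on the other slides, so the 2 sets of arrays did not overlap. For each of the 83 genes the intensity on slides 4 and 9 was below that on the other slides, with a median ratio of 0.383 (0.0882 to 0.57). Among the 55 of these genes over 1000 units on the other slides the median ratio was 0.367, beside 0.412 for all 2613 probes over that level. Each of those 2613 probes was also lower on slides 4 and 9, so a lower intensity there was general.

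Slide 4 held 3 KA and 1 sham array, and slide 9 held 3 KA and 4 sham arrays. No array of day 7 was on either slide, so the comparisons of day 7 do not draw their group means from them. On the IL side at day 28 they held 1 of 9 KA arrays and 2 of 5 sham arrays, and on the CL side 2 of 9 KA arrays and 1 of 5 sham arrays. For IL at day 60 they held 1 of 9 KA and 1 of 5 sham arrays, and on the CL side 2 of 9 KA and 1 of 5 sham arrays.

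On 4 of these arrays, single genes of the respiratory chain were more than 3 log2 units (8-fold) under their own median over all arrays after quantile normalization; such values are called dropped here. CL KA day 60 replicate 3 on slide 4 had 16 dropped genes of the 83 (19.3%), against 2.13% of all tested genes on that array. CL KA day 28 replicate 4 on slide 4 had 11 (13.3%), against 2.12% of all genes. CL sham day 28 replicate 3 on slide 4 had 15 (18.1%, against 1.69%), and IL sham day 28 replicate 5 on slide 9 had 12 (14.5%, against 2.38%). The other 76 arrays had 0 dropped genes among the 83 and at most 1 among all genes. The 4 arrays thus come from both treatments and from both sides. The sham arrays among them are the CL and the IL hippocampus of 1 animal, so animal and slide cannot be told apart for them. The animal of CL KA day 60 replicate 3 also gave IL KA day 60 replicate 4, on slide 5. The animal of CL KA day 28 replicate 4 also gave IL KA day 28 replicate 9, on slide 8. Both of these IL arrays had 0 dropped genes among the 83.

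**Figure D1:**
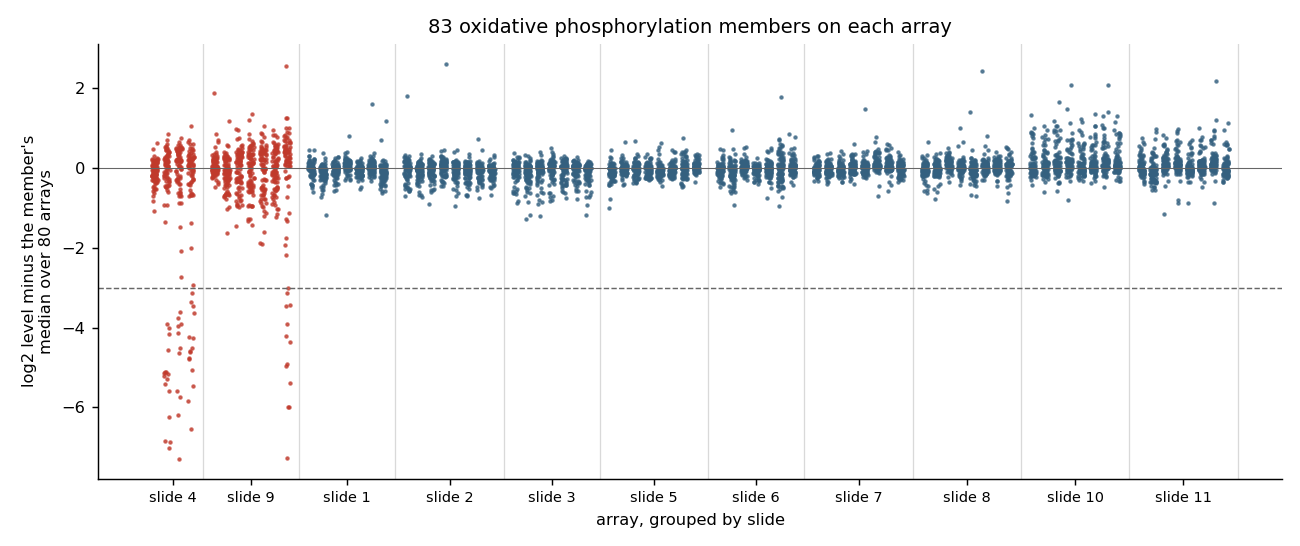
Log2 level of each of the 83 genes minus its own median over all 80 arrays, plotted for every array, with arrays of slides 4 and 9 marked. The 4 arrays with 11 to 16 genes more than 3 log2 units down stand apart from the other 76, which have none.

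Within the brightest 10%, the shares of dropped genes on the same 4 arrays were 30.0%, 22.0%, 28.0% and 22.0% of the 50 respiratory chain genes, against 17.0%, 17.5%, 13.8% and 17.0% of all genes in that set. By complex, 19 of 33 genes of complex I were dropped on at least 1 array, 1 of 3 of complex II, 4 of 7 of complex III, 5 of 16 of complex IV, 8 of 15 of complex V and 0 of 9 assembly factors. The brightest 10% held 26, 0, 5, 9 and 10 genes of complexes I to V and 0 assembly factors, and a gene with a low median cannot fall by 3 log2 units, so these counts move with brightness.

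The dropped genes were not the same on each array. Of 37 genes dropped at least once, 23 were dropped on 1 array, 11 on 2 arrays, 3 on 3 arrays and 0 on all 4 arrays, and any pair of arrays shared 2 to 6. The 3 were Atp5b, the catalytic beta subunit of ATP synthase, Uqcr10, a small subunit of complex III, and Cox8a, the common form of subunit 8 of complex IV. Atp5b had log2 levels of 7.48, 7.79 and 8.34 on CL KA day 60 replicate 3, CL sham day 28 replicate 3 and IL sham day 28 replicate 5, against a median of 14.33 over all 80 arrays. Its unscaled intensities there were 75.2, 126 and 203 units, against a median of 24000 units. Uqcr10 had log2 levels of 7.09, 8.56 and 7.33 on the same 3 arrays, against a median of 13.33. Both genes were thus far below their usual level on an array of 1 KA animal and on both arrays of 1 sham animal.

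Other probes of the dropped genes differed in how far they moved on the same array. In 16 pairs of a dropped brightest probe and another kept probe of the same gene, from 8 genes, the other probe deviated by -5.31 to 0.54 log2 units. It was dropped in 4 pairs and not in 12, but several of the other probes are too dim to fall by 3 log2 units, and some of the 12 were lower by a smaller amount. Cox6b1, a subunit of complex IV whose other probe is bright (median level 12.62), was at 0.40 with that probe on CL KA day 28 replicate 4 and at -3.86 on IL sham day 28 replicate 5, where its brightest probe was at -4.14 and -4.22. On CL KA day 60 replicate 3, Atp5j (coupling factor 6 of ATP synthase) deviated by -5.30 log2 units with its brightest probe and by 0.09 with its other probe. Uqcr10 was low with both probes there, at -6.24 and -4.34. Ndufa8, an accessory subunit of complex I, was at -4.01 and -1.97.

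Tested across all arrays, with the 12 group means and 1 term for slides 4 and 9, 22 of the 83 genes (26.5%) were lower on slides 4 and 9 and 1 (1.2%) was higher. The term takes the arrays of these 2 slides, picked for dimness, as separate replicates. Its p-values therefore measure the spread between arrays and not the spread between slides. Of all genes 13.4% were called, 8.38% as lower and 5.01% as higher, in limma with Benjamini-Hochberg adjustment over all tested genes and a threshold of 0.05, as in all comparisons here. The median difference of the 83 genes was -0.191 log2 units, against -0.016 for all genes and -0.159 for the brightest 10%. Of the 22 lower genes, 20 had been dropped on at least 1 array. Atp5b differed by -1.74 ± 0.36 (SE, adjusted p = 0.000544), Uqcr10 by -1.52 ± 0.32 (adjusted p = 0.000717) and Cox5a, a core-associated subunit of complex IV, by -0.84 ± 0.20 (adjusted p = 0.00291). Ndufs8, an iron-sulfur subunit of complex I, differed by -0.79 ± 0.19 (adjusted p = 0.00261). Uqcrc2, a core protein of complex III, differed by -0.77 ± 0.19 (adjusted p = 0.00359). The gene that was higher was Ndufc2, an accessory subunit of complex I, by 0.23 ± 0.08 (adjusted p = 0.0309).

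**Figure D2:**
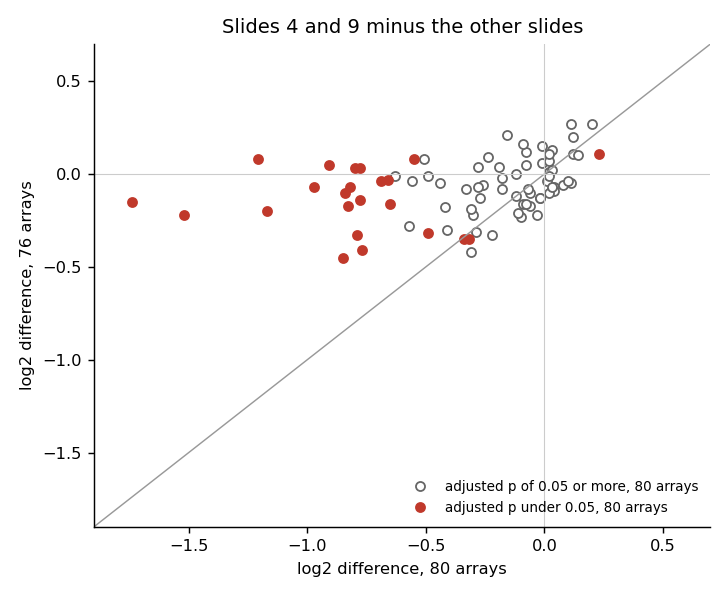
Log2 difference of slides 4 and 9 minus the other slides for each of the 83 genes, with all 80 arrays and without the 4 arrays with dropped genes; filled points have an adjusted p under 0.05 with all arrays. With all arrays the differences reach -1.74 for Atp5b; without the 4 arrays the lowest is -0.45 for Atp5j2.

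Without the 4 arrays, 10 of the 83 genes were lower on slides 4 and 9 and 0 were higher, beside 15.3% of all genes called (11.8% lower), and the median difference was -0.067, against -0.04 for all genes. Of the 23 genes called with all arrays, 6 were called again and 17 were not, and 4 others were called. The 4 arrays were picked by drops among the 83 genes, so smaller differences of dropped genes follow from that choice. Atp5j2, subunit f of ATP synthase, was lowest, at -0.45 ± 0.08 (adjusted p = 1.7e-05). Uqcrc2 was at -0.41 and Ndufs8 at -0.33, while Atp5b was at -0.15 (adjusted p = 0.0813) and Uqcr10 at -0.22 (adjusted p = 0.0802). The slides were also taken singly, with the 4 arrays kept in. Slide 4 alone gave 33 lower and 2 higher genes of the 83, with a median of -0.353 (15.0% of all genes called). Slide 9 alone gave 7 lower and 1 higher, with a median of -0.049 (14.6% called). The 2 slides differed in size of effect: Atp5b was at -3.28 ± 0.50 on slide 4 and at -0.77 ± 0.41 on slide 9 (limma, adjusted p = 0.196). Every slide 4 array except IL KA day 28 replicate 4 had dropped genes, so the slide 4 counts include the drops. Without the 4 arrays, that replicate was the only array left from slide 4.

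Against this background the kainate comparisons were read with all 80 arrays, without the 4 arrays with dropped genes and without all arrays of slides 4 and 9. P-values measure the spread between these animals' arrays. On the IL side at day 7, 1 of the 83 genes was higher in KA (Cox7a1) and 1 was lower (Ndufaf5), where 10.4% of all tested genes were called (7.39% higher, 3.02% lower). At day 28, 4 were higher and 0 lower, beside 5.84% of all genes (4.4% higher, 1.44% lower). At day 60, 1 was higher and 0 lower, beside 4.51% of all genes (3.23% higher, 1.27% lower). Without the 4 arrays, day 28 had 1 higher gene, beside 3.6% of all genes higher and 0.8% lower. The calls of day 7 and day 60 did not change. Of all genes, 8.26% were then higher and 4.66% lower at day 7, and 4.12% higher and 2.19% lower at day 60. At an unadjusted p under 0.05 there were 7, 14 and 2 of the 83 genes at days 7, 28 and 60 (8.43%, 16.9% and 2.41%), beside 20.5%, 19.3% and 16.6% of all genes.

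**Figure D3:**
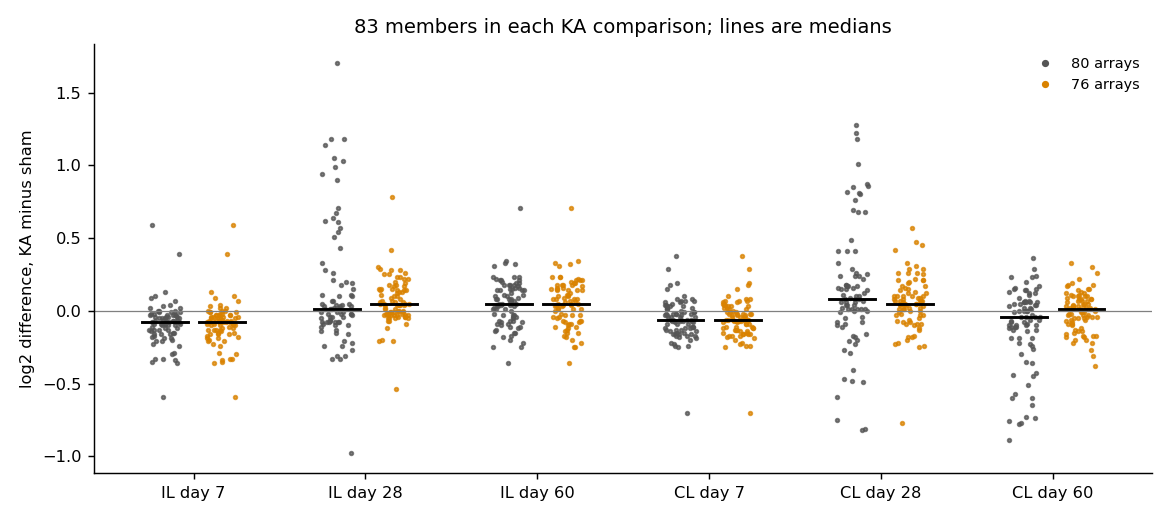
Log2 difference of KA minus sham for the 83 genes in each of the 6 comparisons, with all 80 arrays and without the 4 arrays with dropped genes. On the IL side at day 28 the range narrows to -0.54 to 0.78 without the 4 arrays, against -0.98 to 1.70 with them; Cox7a1 lies above 0 throughout.

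Cox7a1, the heart and muscle form of subunit 7A of complex IV, was higher in KA on the IL side at all 3 times. At day 7 its log2 level was 7.52 to 8.98 (median 8.20) in 8 KA arrays, against 7.67, 8.05, 7.45 and 7.49 in sham arrays. The means were 8.25 ± 0.45 in KA and 7.67 ± 0.27 in sham (SD, n = 8 and 4), and 6 of 8 KA arrays lay above every sham array. The difference was 0.59 ± 0.19 (SE), or 1.50-fold, with adjusted p = 0.0296 in limma. This call was lost in 6 of 12 repeats that left out 1 array, with a highest adjusted p of 0.155 without IL sham day 7 replicate 3; the other arrays are IL sham replicates 1 and 4 and IL KA replicates 1, 2 and 7.

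At day 28 Cox7a1 had log2 levels of 7.73 to 8.52 (median 8.36) in 9 KA arrays and of 7.42, 7.53, 7.66, 7.19 and 8.31 in sham arrays. The highest sham array is replicate 5 on slide 9, the array with 12 dropped genes, and 5 of 9 KA arrays lay above it. The means were 8.24 ± 0.29 in KA and 7.62 ± 0.42 in sham (SD, n = 9 and 5), a difference of 0.61 ± 0.17 (1.53-fold, adjusted p = 0.0195). Without the 4 arrays, 9 of 9 KA arrays lay above every sham array, and the difference was 0.78 ± 0.17 (adjusted p = 0.0021). Without IL sham day 28 replicate 4, also on slide 9, it was 0.50 (adjusted p = 0.0976).

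At day 60 Cox7a1 was at 7.80 to 8.25 (median 7.97) in 9 KA arrays, against 7.54, 7.46, 7.26, 7.31 and 6.92 in sham arrays. Here every KA array lay above every sham array, as for 1.93% of all tested genes. The means were 8.00 ± 0.17 in KA and 7.30 ± 0.24 in sham (SD, n = 9 and 5), a difference of 0.71 ± 0.17 (1.63-fold, adjusted p = 0.00505). Without IL sham day 60 replicate 5, on slide 9, the difference was 0.61 (adjusted p = 0.0535). The KA difference at day 28 minus that at day 7 was 0.03 ± 0.25 (adjusted p = 0.99), and for day 60 minus day 7 it was 0.12 ± 0.25 (adjusted p = 0.971).

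Without slides 4 and 9 altogether, the KA difference of Cox7a1 on the IL side was 0.59, 0.67 and 0.61 at days 7, 28 and 60 (adjusted p = 0.0113, 0.0348 and 0.0288). When the 11 slides entered as a block, it was 0.62, 0.69 and 0.76 (adjusted p = 0.0257, 0.0186 and 0.00374). In the 9 slides and days on which both groups of the IL side were present, the difference within the slide was above 0 in 9 of 9, from 0.20 to 1.06. Each of these sets 1 or 2 KA arrays against 1 sham array. They are the same arrays as in the tests above and give no separate support. Cox7a1 had a mean log2 level of 7.77, too low for a fall of 3 log2 units, so the lack of a drop tells nothing about it. It passed the test at all 3 times with and without the dim slides, which hold no array of day 7.

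**Figure D4:**
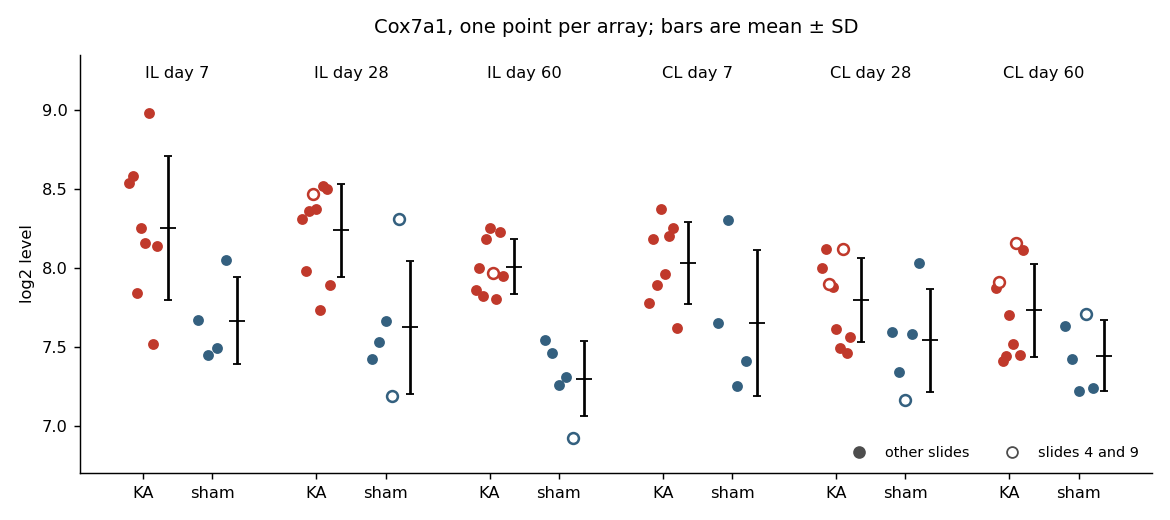
Log2 level of Cox7a1 on every array by side, day and treatment, KA left of sham, with group means and SD; arrays of slides 4 and 9 are marked. On the IL side at day 60 the 9 KA arrays (7.80 to 8.25) lie above the 5 sham arrays (6.92 to 7.54).

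On the CL side the KA difference of Cox7a1 was 0.38 ± 0.19 at day 7, 0.26 ± 0.17 at day 28 and 0.29 ± 0.17 at day 60 (adjusted p = 0.579, 0.601 and 0.733). The difference of the KA effect between the sides was 0.21 ± 0.25, 0.36 ± 0.23 and 0.42 ± 0.23 at days 7, 28 and 60 (lowest adjusted p = 0.464), so an effect of one side alone was not shown. Within KA animals, Cox7a1 was higher on the IL than on the CL side at day 28, by 0.44 ± 0.14 (adjusted p = 0.0481; 4.34% of all genes called, 3.79% higher and 0.554% lower), a call that 8 of 14 alternatives and 12 of 18 repeats without 1 array lost.

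Markers of glia moved in the same comparisons. Of 11 microglia and macrophage markers tested, 11, 9 and 5 were higher in KA on the IL side at days 7, 28 and 60, and of 10 astrocyte markers 7, 5 and 4. The summed microglia level was 4680 to 38500 (median 28200) in KA arrays of the IL side at day 7, against 3260 to 4730 (median 4480) in sham arrays. It was 8980 to 27400 in KA and 3430 to 4000 in sham at day 28, and 5560 to 11900 in KA and 3010 to 4180 in sham at day 60. IL KA day 7 replicate 8 had the lowest microglia sum of its group, 4680, within the range of sham, and the lowest Cox7a1 level, 7.52; without it the difference of Cox7a1 was 0.69 ± 0.18 (adjusted p = 0.00474). The 2 levels did not move together on every array: IL KA day 7 replicate 4 had a microglia sum of 30400 with Cox7a1 at 7.84. The other hippocampus of the animal of replicate 8, CL KA day 7 replicate 7, had the lowest sum of its group, 3910, with Cox7a1 at 8.20. Of 7 endothelial and pericyte markers, 1, 0 and 2 were higher. The part of these cells in the level of Cox7a1 was not tested.

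The other isoforms of complex IV did not share the call. Cox7a2, the common form of the subunit, differed by -0.00 ± 0.28, -0.24 ± 0.25 and 0.01 ± 0.25 between KA and sham on the IL side at days 7, 28 and 60. Cox8b, a muscle form of subunit 8, differed by -0.59 ± 0.52, -0.98 ± 0.47 and -0.05 ± 0.47 (lowest adjusted p = 0.23), and Cox4i2 by 0.09 ± 0.17, 0.19 ± 0.15 and 0.17 ± 0.15. The SEs of Cox8b were too wide for a change of the size seen in Cox7a1 to be detectable. Those of Cox7a2 were also wider than those of Cox7a1. The SEs of Cox4i2 were no wider than those of Cox7a1, but Cox4i2 was detected on only 34 arrays. With so few detections, its narrow SEs do not show that such a change would have been seen.

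Cox6a2, the heart and muscle form of subunit 6A, gave a difference between the sides at day 28. On the CL side its log2 level was 8.00 to 9.37 (median 9.14) in 9 KA arrays, against 9.59, 9.53, 10.24, 9.97 and 9.81 in sham arrays. Every KA array lay below every sham array, as for 0.404% of all tested genes, with a difference of -0.82 ± 0.27 (adjusted p = 0.132). The IL means were 9.29 ± 0.21 in KA and 8.65 ± 1.48 in sham (SD, n = 9 and 5), where 1 sham array, replicate 5, was at 6.07. The difference of the KA effect, IL minus CL, was 1.47 ± 0.36 (adjusted p = 0.0219; 1.08% of all genes called, 0.914% in this direction). It was 0.77 without the 4 arrays (adjusted p = 0.169) and 0.82 without IL sham day 28 replicate 5 (adjusted p = 0.142). The CL difference was -0.77 without the 4 arrays (adjusted p = 0.108) and -0.76 without slides 4 and 9 (adjusted p = 0.0441), so it was of similar size with and without the dim arrays.

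The other 3 calls of the IL side at day 28 rested on sham arrays of slide 9. Ndufa12, an accessory subunit of complex I, had log2 levels of 11.53 to 11.87 (median 11.69) in 9 KA arrays, against 11.72, 11.72, 11.72, 10.90 and 7.34 in sham arrays. The last 2 sham arrays, replicates 4 and 5, are both on slide 9, and the other 3 lay inside the range of KA. The difference was 1.03 ± 0.28 (adjusted p = 0.0141), it was 0.19 without the 4 arrays (adjusted p = 0.487), and it was -0.02 without slides 4 and 9 (adjusted p = 0.95).

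Uqcrc1, a core protein of complex III, had log2 levels of 11.95 to 12.20 (median 12.14) in KA arrays and of 12.02, 11.92, 12.09, 11.70 and 8.07 in sham arrays. Its difference was 0.94 ± 0.26 with all arrays (adjusted p = 0.0203), 0.17 without the 4 arrays (adjusted p = 0.617) and 0.08 without slides 4 and 9. Ndufa5, an accessory subunit of complex I, was at 12.03 to 12.28 (median 12.17) in KA arrays and at 12.28, 12.03, 12.05, 11.15 and 10.43 in sham arrays. Its difference was 0.57 ± 0.15 (adjusted p = 0.0139), 0.28 without the 4 arrays (adjusted p = 0.248) and 0.06 without slides 4 and 9 (adjusted p = 0.864). For both genes the 2 lowest sham arrays were again replicates 4 and 5.

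**Figure D5:**
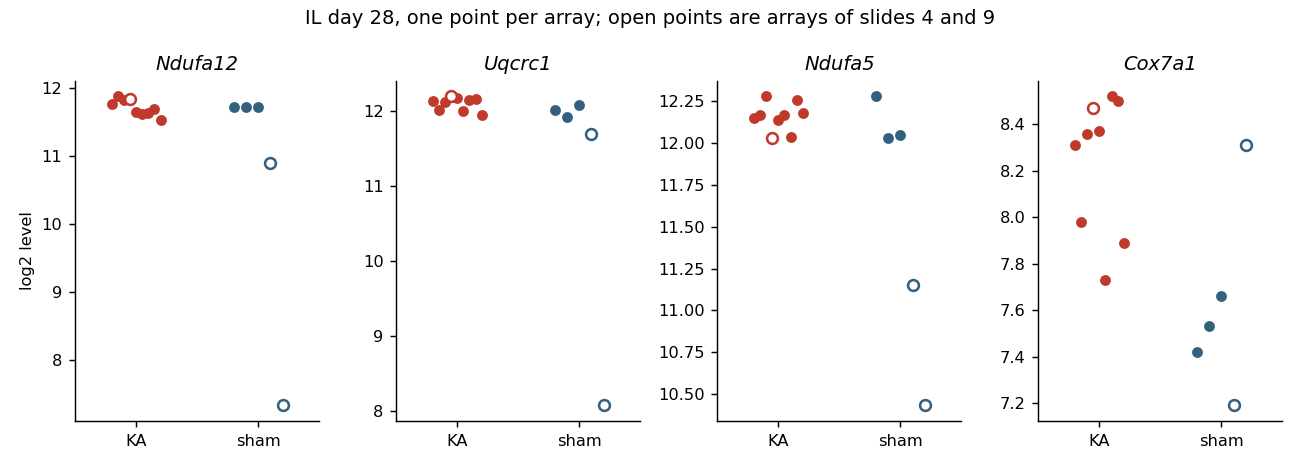
Log2 levels of Ndufa12, Uqcrc1, Ndufa5 and Cox7a1 on the IL side at day 28, KA left of sham, with arrays of slides 4 and 9 marked. The sham arrays far below the rest in the first 3 genes are on slide 9, while in Cox7a1 the sham array of replicate 5 is the highest sham array.

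Ndufa4 showed the widest gap of the same kind without passing the test. Its log2 level was 12.97 to 13.31 (median 13.18) in 9 KA arrays and 13.11, 12.91, 13.06, 12.48 and 5.87 in sham arrays. The difference was 1.70 ± 0.60 (adjusted p = 0.0773) with all arrays and 0.29 ± 0.11 (adjusted p = 0.131) without the 4. Atp5b differed by 1.18 ± 0.66 with all arrays and by -0.02 ± 0.09 without the 4. Cox4i1, the common form of subunit 4, gave the same on the CL side at day 28, 0.80 (adjusted p = 0.0701) with all arrays and 0.10 without the 4, where CL sham replicate 3 was at 10.06 and the other sham arrays at 13.14 to 13.50.

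Leaving out the 4 arrays narrowed the errors of core subunits that had been dropped. These arrays were picked by the drops themselves, so this narrowing was fixed by the choice and is no separate result. Ndufv1, which binds NADH in complex I, differed on the IL side by -0.09 ± 0.45, -0.09 ± 0.41 and -0.07 ± 0.41 at days 7, 28 and 60, and by the same values with SEs of 0.09, 0.09 and 0.08 without the 4. Atp5b differed by -0.08 ± 0.09, -0.02 ± 0.09 and -0.09 ± 0.08 without them, and Cox4i1 by -0.02 ± 0.09, 0.02 ± 0.09 and 0.04 ± 0.08. Sdhb, the iron-sulfur subunit of complex II, differed by -0.17 ± 0.16, 0.33 ± 0.15 and 0.16 ± 0.15 with all arrays and by -0.17 ± 0.15, 0.13 ± 0.15 and 0.16 ± 0.14 without the 4, so its errors hardly changed. None of these passed the test in any of the 3 comparisons.

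At day 7, where no array was on a dim slide, most of the 83 genes lay slightly below 0 on the IL side. The KA difference was below 0 for 73 genes and above 0 for 10, with a median of -0.08 log2 units, while 57.5% of all genes and 64.9% of the brightest 10% lay below 0, with medians of -0.037 and -0.067. Complex I had 32 of 33 genes below 0 (median -0.09), complex IV 13 of 16 (median -0.04) and complex V 13 of 15 (median -0.08). The median of the 83 genes was -0.239 with median scaling in place of quantiles, and that of all genes was -0.104, so the direction was the same under both scalings. At day 28 it was 0.009 with all arrays (45 above 0) and 0.048 without the 4 (53 above 0), and at day 60 it was 0.054 (53 above 0).

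Ndufaf5, an assembly factor of complex I, was the gene called lower at day 7. Its log2 level was 8.90 to 9.51 (median 9.30) in 8 KA arrays, against 9.64, 9.51, 9.47 and 9.80 in sham arrays, and 7 of 8 KA arrays lay below every sham array. The difference was -0.34 ± 0.12 (0.79-fold, adjusted p = 0.0446). Leaving out 1 array lost the call in 10 of 12 repeats, all but those without IL KA replicates 3 and 8. Without slides 4 and 9, which hold none of these arrays but enter the shared estimate of spread, 4 more genes were called lower, beside 8.95% of all genes (19.4% called in either direction). They were Atp5o, the oligomycin-sensitivity subunit of ATP synthase (-0.36, adjusted p = 0.029), Ndufb3 of complex I (-0.29, adjusted p = 0.0276), the assembly factor Sdhaf4 (-0.24, adjusted p = 0.0471) and Uqcrfs1 (-0.30, adjusted p = 0.0399). With all arrays, Atp5o differed by -0.36 ± 0.14 (adjusted p = 0.102), with levels of 8.55 to 9.32 in KA and 9.15, 9.41, 9.10 and 9.43 in sham.

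Markers of neurons were measured beside these values. The summed level of 11 pan-neuronal markers was 44600 to 58900 (median 52800) in KA arrays of the IL side at day 7 and 57800 to 62500 (median 59300) in sham arrays, and 0 of the 11 passed the test in limma (1 at an unadjusted p under 0.05). Of 9 interneuron markers 3 were lower, and of 9 markers of principal neurons 1 was lower. Their part in the levels of the respiratory chain genes was not tested.

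On the CL side none of the 83 genes was called in limma at day 7, 28 or 60, where 1.47%, 0.0967% and 0.0527% of all genes were called (0.0439%, 0.0703% and 0.0% as lower in KA). At an unadjusted p under 0.05 there were 3, 14 and 5 of the 83 (3.61%, 16.9% and 6.02%), beside 8.54%, 11.9% and 7.42% of all genes. The median difference was -0.064 at day 7, with 59 genes below 0. At day 28 it was 0.084 with all arrays and 0.052 without the 4, and at day 60 it was -0.045 with all arrays and 0.014 without the 4, so its sign at day 60 turned with these arrays. Atp5c1, the gamma subunit of ATP synthase, and the assembly factor Ndufaf4 had every KA array below every sham array at day 7, as for 0.457% of all genes. Their differences were -0.19 ± 0.38 and -0.24 ± 0.13 (adjusted p = 1.0 and 0.618).

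The other contrasts gave few calls. The difference of the KA effect between the sides was called for 0 of the 83 genes at day 7 and at day 60, beside 0.0264% and 0.597% of all genes, with 1 gene each at an unadjusted p under 0.05, beside 4.43% and 11.2% of all genes. In KA animals IL and CL differed in 0 of the 83 genes at day 7 and day 60, beside 4.32% (3.32% higher) and 3.86% (2.5% higher, 1.35% lower) of all genes, with 2 and 8 (2.41% and 9.64%) at an unadjusted p under 0.05, beside 15.8% and 16.6% of all genes. Without the 4 arrays, Uqcr11, a small subunit of complex III, was higher on the IL side at day 60, by 0.26 ± 0.07 (adjusted p = 0.0205), against 0.26 ± 0.36 with all arrays (adjusted p = 0.785). Of all genes, 2.84% were called higher and 1.28% lower there without the 4 arrays. In sham animals no gene of the 83 differed between the sides in limma, where of all genes at most 0.00879% differed, at day 28. At an unadjusted p under 0.05 there were 0, 17 and 5 of the 83 at days 7, 28 and 60 (0.0%, 20.5% and 6.02%), beside 1.22%, 10.9% and 5.88% of all genes. No change of the KA effect from day 7 to day 28 or to day 60 was called among the 83 genes on either side. On the IL side 61 and 71 of the changes lay above 0 (medians 0.088 and 0.126, against 0.001 and 0.018 for all genes). On the CL side 60 and 40 did (medians 0.167 and -0.023, against -0.015 and 0.021). At an unadjusted p under 0.05 there were 11 and 2 (13.3% and 2.41%) on the IL side and 9 and 2 (10.8% and 2.41%) on the CL side. The same shares of all genes were 11.1% and 10.7% on the IL side and 9.74% and 6.4% on the CL side. Of all genes the IL effect changed for 0.211% to day 28 (0.0791% upward) and for 1.63% to day 60. The CL effect changed for 0.0% of all genes to either day, so the lack of CL calls is not particular to the 83 genes.

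Related genes outside the 5 complexes were counted for comparison. Of 33 other genes of the respiratory chain and its assembly, 2 were lower in KA on the IL side at day 7, Dmac2 (-0.37, adjusted p = 0.00794) and Acad9 (-0.38, adjusted p = 0.0132), both assembly factors of complex I, and 0 were higher. Without the 4 arrays Surf1, an assembly factor of complex IV (-0.34, adjusted p = 0.0461), and Ckmt1, a creatine kinase of mitochondria (-0.39, adjusted p = 0.0208), were lower as well. At day 28, 1 was higher with all arrays (Uqcc1, 0.35, adjusted p = 0.0381) but not without the 4 arrays, and at day 60 none was called with all arrays. Of 14 genes of glycolysis, Hk2, which phosphorylates glucose, was higher on the IL side at all 3 times, by 1.42 ± 0.21 (adjusted p = 3.69e-07), 0.88 ± 0.19 (adjusted p = 0.00175) and 0.81 ± 0.19 (adjusted p = 0.005), and Pgam1 was lower at day 7 (-0.37, adjusted p = 0.0485). Pkm was called at day 60 only without the 4 arrays (0.31, adjusted p = 0.0226). Of 14 genes of the citric acid cycle, 1 was higher at day 28 (Ogdh, 0.82, adjusted p = 0.0275) but not without the 4 arrays, where Suclg2 was higher at day 7 (0.41, adjusted p = 0.0386). Among 12 genes of mitochondrial biogenesis and 7 antioxidant and uncoupling genes none was called on the IL side in limma with all arrays, with 1, 0 and 1 and 1, 0 and 0 at an unadjusted p under 0.05. Without the 4 arrays Nrf1, a regulator of such genes, was lower at day 60 (-0.31, adjusted p = 0.0477).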

How the data were processed

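Biotin-labelled RNA was hybridised to Illumina mouse expression BeadChips, with 1 array for each hippocampus of 40 mice. The table the authors deposited gives, for each probe, a bead intensity after background subtraction and a detection p-value. Their deposited log2 values (series matrix) share 1 distribution across arrays, as quantile normalization gives. BeadStudio, GenomeStudio and Partek were used, per the submitters' processing notes, with versions not given in the sources. Of 25697 lines of the intensity table, the first 21244 were used. The last 4453 were not used, since values there stand under another array's heading for 70 of 80 arrays. A detection column shifted by 1 line (CL sham day 60 replicate 4) was realigned.

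The log2 values were used for levels and tests, and intensities for brightness. A detection p under 0.05 on at least 4 arrays kept 16646 of 21244 probes. The annotation gave 1 symbol for 19889 probes and none for 1355, and the brightest probe of each symbol gave 11381 genes. Limma 3.58.1 (statmod 1.5.0, R 4.3.3) used 12 group means with a random block for the animal (correlation 0.0801). Tests were two-sided, with Benjamini-Hochberg adjustment across the 11381 genes of each contrast and a threshold of 0.05. The slide comparison added 1 term for slides 4 and 9. Plots used matplotlib 3.10.9; tables used pandas 2.3.3 with Python 3.11.15.

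Named genes were up to 8 called genes per direction in each KA comparison, up to 5 in the others, and a fixed set of core subunits and isoforms; dropped genes, Cox6b1, Ndufa8, Atp5j, Uqcr11, Surf1, Ckmt1, Pkm, Suclg2, Ndufaf4 and the genes called only without slides 4 and 9 were named after their values were seen. The genes, lists and slides were chosen with earlier results of these data known. Alternatives were neqc (offset 16), median scaling, other detection filters, the mean of kept probes, no animal block, animal, slide or replicate number as a fixed block, slide terms, array weights and left-out arrays; the 4 arrays were left out after seeing the data. Replicate numbers did not pair arrays: the correlations of same-numbered deviations were -0.473 to 0.351. On simulated data of 11381 genes, 200 were changed in the IL KA group of day 28 and 200 others on slides 4 and 9. For the IL comparison of day 28, 73.1%, 94% and 98.5% of changes of 1.5-fold, 2-fold and 3-fold were recovered. Of the other 11181 genes, which include those changed on the slides, 14 were called. The simulated noise was normal and independent between arrays. Its fit had a term for slides 4 and 9 and no animal block, unlike the reported test of that comparison. Recovery in the presence of arrays with dropped genes was not tested. Array number limits the precision.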

Additional observations from a re-analysis of the deposited data

Results flagged for a closer look

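Single arrays lay far from the rest of their group by Dixon's test, which chance passes in about 1 of 20 groups; 26 groups of values were tested. Ndufa12 was at a log2 level of 7.34 and Uqcrc1 at 8.07 on IL sham day 28 replicate 5, while the other 4 arrays of the group were at 10.90 to 11.72 and at 11.70 to 12.09. The median deviation of the 83 genes from their medians over all arrays was 0.26 on the same array, against -0.12 to -0.03 on the others of its group, so most of its genes lay above their medians while 12 were dropped. That median was -0.07 on CL sham day 28 replicate 2 (others -0.04 to -0.02), 0.07 on CL sham day 7 replicate 2 (others 0.00 to 0.01) and -0.10 on IL KA day 60 replicate 1 (others 0.01 to 0.10). Of these arrays 1 is on slide 9 and none on slide 4.

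The KA effect on Cox6a2 at day 28 differed between IL and CL by 1.47 log2 units (limma, adjusted p = 0.0219), and by 0.77 without the 4 arrays with dropped genes (adjusted p = 0.169).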

How the results depend on the processing

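Of 267 recomputed counts of called genes among the 83, over 20 comparisons and without those that leave out 1 array, 232 stayed within 1.5 times the reported count and 35 did not. Most of the comparisons had a reported count of 0, so many of the 232 are counts of 0 that stayed at 0. For KA against sham on the IL side at day 7 (2 genes), median scaling gave 0, no detection filter and the mean of kept probes 1 each, no array of slides 4 and 9 gave 6, and array weights 11. On the IL side at day 28 (4 genes), slide as a block, no slides 4 and 9, array weights and no array with dropped genes gave 1 each. On the CL side at day 28 (0 genes), the term for slides 4 and 9 gave 1, no slides 4 and 9 gave 1, and array weights 2. The side difference of day 28 (1 gene) had 0 with slide as a block, without slides 4 and 9 and without the 4 arrays. IL against CL in KA at day 28 (1 gene) had 0 with neqc, median scaling, no detection filter, no animal block, slide as a block, the share of detected probes as a covariate and animal as a fixed block, 3 without slides 4 and 9, and 2 with array weights. At day 60 (0 genes) array weights and leaving out the 4 arrays gave 1 each, and array weights gave 1 for the changes of the IL effect from day 7 to day 28 and to day 60. For slides 4 and 9 (23 genes), median scaling gave 73, array weights 0, leaving out the 4 arrays 10, slide 4 alone 35 and slide 9 alone 8. Ndufa12 on the IL side at day 28 turned to -0.02 without slides 4 and 9. Where a cause is not given by the arrays left out, the cause was not tested.

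With the replicate number as a block, the IL comparison of day 7 had 1 called gene (Cox7a1, with Ndufaf5 at adjusted p = 0.0623) and IL against CL in KA at day 28 had 0. The numbers do not pair the samples.

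Leaving out 1 array gave 0 to 3 genes for IL at day 7, 1 to 8 at day 28 and 0 to 1 at day 60, and 0 to 5 for CL at day 28, with 0 throughout for CL at days 7 and 60. The side difference had 0 to 2 at day 28, IL against CL had 0 to 1 in KA at days 28 and 60 and 0 to 5 in sham at day 28, and the IL change from day 7 to day 28 had 0 to 1; the other side and day contrasts stayed at 0. The slide comparison had 19 to 28. Cox7a1 on the IL side passed the test in 12 of 13 alternatives at day 7 (not under median scaling, 0.63, adjusted p = 0.0909) and in 13 of 13 at days 28 and 60. Signal limits what can be read on slides 4 and 9, where 46.8% to 58.0% of probes were detected.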

Other observations

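Genes regulated by oxygen supply were listed beside the respiratory chain. Of 8 such genes, Egln3, an oxygen-sensing prolyl hydroxylase, was higher in KA on the IL side at day 7, by 0.64 ± 0.17 log2 units (limma, adjusted p = 0.00488), and Slc2a1, the glucose transporter of brain endothelium and astrocytes, at day 28, by 0.99 ± 0.31 (adjusted p = 0.0399). Slc2a1 was not called without the 4 arrays with dropped genes. Aldoc, the brain form of the glycolytic enzyme aldolase, was called higher at day 7 without these arrays, by 0.41 ± 0.11 (adjusted p = 0.00604). Vwf, a marker of endothelium, was higher at day 7 by 1.15 ± 0.34 (adjusted p = 0.0154) and at day 60 by 1.0 ± 0.31 (adjusted p = 0.0447). Hk2 was also higher in KA on the CL side at day 7, by 0.80 ± 0.21 (adjusted p = 0.028).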
